A study of Mus musculus with 8 samples.

Results

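The nuclear-encoded subunits of the respiratory chain were examined by RNA sequencing of whole embryonic mouse hearts. Subunits were taken by gene symbol alone, as the Ndufa, Ndufb, Ndufc, Ndufs and Ndufv series, Sdha to Sdhd, and symbols beginning with Uqcr, Cox4 to Cox8 or Atp5. Of 24385 features in the table, 85 symbols matched and 84 were kept after Ndufa4l2 was left out. They comprised 37 genes of complex I, 4 of complex II, 8 of complex III, 18 of complex IV and 17 of complex V, as assigned by symbol alone, so that Ndufa4, known as a complex IV subunit, counts under complex I and Atp5sl, an assembly factor of complex I, under complex V. The 8 libraries formed 4 groups of 2. Hearts came from embryos of day 8.5 (E8.5) or day 9.5 (E9.5), which were wild type (WT) or carried a conditional knockout of Dgcr8 (cKO), all on a C57BL/6 background. Per the methods of the study, WT embryos were Dgcr8 loxP/loxP with a Rosa26 mT/mG/+ reporter and no Cre, and cKO embryos had Mesp1 Cre/+ in addition to the same alleles. The floxed Dgcr8 and the reporter were therefore shared by every group, and the Cre allele cannot be told apart from the deletion. The labels give the knockout genotype as Mesp1Cre/+; Dgcr8-/-. Mesp1-Cre acts in early mesoderm whose progeny form heart muscle, endocardium and vessels, so the deletion was not limited to cardiomyocytes. Dgcr8 encodes the RNA-binding partner of Drosha in the microprocessor, which cuts primary microRNA transcripts.

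Complexes I to IV pass electrons from NADH and succinate to oxygen in the inner mitochondrial membrane, and complexes I, III and IV pump protons as they do so. Complex V, the ATP synthase, lets the protons back and makes ATP. Most subunits are encoded in the nucleus and imported, while a few core subunits are made from mitochondrial DNA. Several subunits of complexes IV and V exist as isoforms from separate genes, among them the muscle forms Cox6a2, Cox7a1 and Cox8b and the oxygen-responsive form Cox4i2.

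Values were FPKM (fragments scaled by transcript length and by the mapped total of the library), a level per transcript length that allows genes to be compared. Differences were tested on the log2(FPKM + 1) scale with limma, in a model of the 4 groups over the 10018 genes averaging at least 1 FPKM. Calls required an adjusted p (Benjamini-Hochberg, over all genes tested) under 0.05 together with a change of at least 1.5-fold. Changes are given as log2 value ± SE, from 2 libraries against 2. The test included 82 of the 84 subunits, and Cox7b2 and Cox8c, isoforms known from the testis, were listed at 0 in all 8 libraries. The median SE of a subunit was 0.30 (range 0.23 to 0.75), and read depth is not given with FPKM.

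Dgcr8 itself was at 7.10 and 8.60 FPKM in WT and 1.64 and 4.67 in cKO at E8.5, and 3.49 and 3.23 in WT and 1.15 and 1.77 in cKO at E9.5, lower in the cKO libraries at either stage without overlap. All 10 cardiomyocyte markers checked were present, and their summed level was 25792 and 42635 FPKM for WT and 56894 and 39229 for cKO at E8.5, and 58683 and 56854 for WT and 80139 and 80274 for cKO at E9.5. Other tissues were represented too. The 5 decidual markers summed to 485 and 1185 FPKM in WT at E8.5, to 37.4 and 5168 in cKO at E8.5, and to at most 29.1 at E9.5, where 1 of them was at 0. The 8 myeloid and natural killer markers summed to 492 and 88.4 FPKM in WT and 6.13 and 265 in cKO at E8.5, and to 8.21 and 10.3 in WT and 11.6 and 15.0 in cKO at E9.5. The 5 epicardial markers summed to 17.6 and 9.39 FPKM in WT and 4.69 and 13.5 in cKO at E8.5, and to 37.1 and 19.7 in WT and 9.38 and 8.79 in cKO at E9.5. The summed level of the 8 erythroid markers ranged from 9788 to 44970 FPKM over the libraries. In bulk RNA, fewer cells of a type and less RNA per cell cannot be told apart, and the part of these other cells in the values that follow was not tested.

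Promoter windows (RefSeq, GRCm38.p6, from 250 bases before to 50 after the transcription start) were matched for 70 of the 84 subunits, in 76 windows, and searched on both strands for the letters of 5 motifs of factors known from mitochondrial gene control. The NRF1 core GCGCATGCG was in 8 subunit genes (10.5% of subunit windows, against 3.89% for all tested genes and 1.75% of all windows). The YY1 core AAGATGGCG was also in 8 (11.8% of subunit windows, against 3.27% for all tested genes and 1.40% of all windows). The ETS/GABP core CCGGAAG was in 16 (21.1% of subunit windows, against 18.9% for all tested genes and 8.86% of all windows), and the E-box CACGTG in 7 (11.8% of subunit windows, against 10.3% for all tested genes and 7.15% of all windows). The ERR site TCAAGGTCA was in Atp5g3 and Sdhd (2.63% of subunit windows, against 0.247% for all tested genes and 0.423% of all windows). A match is a description of letters only, and no factor was measured. The 250 bases upstream of 6 subunits are shown 5′ to 3′ on the strand of the gene, which is the minus strand for each, with matched letters in capitals. Atp5g1 (chr11:96075632-96075881), Atp5g2 (chr15:102671048-102671297) and Atp5g3 (chr2:73911327-73911576) are shown because they encode the same mature c subunit of ATP synthase under separate promoters. Cox6a1 (chr5:115348959-115349208) and Atp5l (chr9:44920743-44920992) rose with stage in WT and held several of the motifs, and Cox8b (chr7:140900447-140900696) was listed above 0 at E9.5 only and held none.
Atp5g1: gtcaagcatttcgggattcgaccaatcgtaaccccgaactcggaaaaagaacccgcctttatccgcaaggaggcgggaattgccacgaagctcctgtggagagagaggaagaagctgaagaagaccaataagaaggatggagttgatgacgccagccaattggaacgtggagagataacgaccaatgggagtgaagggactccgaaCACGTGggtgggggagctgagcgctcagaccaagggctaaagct
Atp5g2: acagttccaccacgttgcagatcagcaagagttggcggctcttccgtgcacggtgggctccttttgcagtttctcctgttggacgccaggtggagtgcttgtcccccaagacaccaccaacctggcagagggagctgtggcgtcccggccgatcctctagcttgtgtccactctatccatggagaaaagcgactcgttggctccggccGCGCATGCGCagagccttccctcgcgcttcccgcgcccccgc
Atp5g3: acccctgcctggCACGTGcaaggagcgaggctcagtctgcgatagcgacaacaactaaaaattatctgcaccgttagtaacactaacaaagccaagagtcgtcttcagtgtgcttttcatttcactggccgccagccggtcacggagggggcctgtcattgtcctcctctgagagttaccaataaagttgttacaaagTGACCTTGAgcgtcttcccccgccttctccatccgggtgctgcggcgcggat
Cox6a1: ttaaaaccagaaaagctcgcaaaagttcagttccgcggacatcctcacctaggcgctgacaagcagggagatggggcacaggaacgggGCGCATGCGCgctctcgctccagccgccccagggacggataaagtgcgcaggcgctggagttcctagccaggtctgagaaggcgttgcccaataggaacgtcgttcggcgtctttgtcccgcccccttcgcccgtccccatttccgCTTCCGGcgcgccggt
Atp5l: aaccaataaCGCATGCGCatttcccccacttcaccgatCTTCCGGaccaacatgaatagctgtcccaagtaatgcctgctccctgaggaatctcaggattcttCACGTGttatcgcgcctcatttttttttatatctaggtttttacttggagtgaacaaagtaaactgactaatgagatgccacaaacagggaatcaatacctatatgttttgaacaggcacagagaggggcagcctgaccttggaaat
Cox8b: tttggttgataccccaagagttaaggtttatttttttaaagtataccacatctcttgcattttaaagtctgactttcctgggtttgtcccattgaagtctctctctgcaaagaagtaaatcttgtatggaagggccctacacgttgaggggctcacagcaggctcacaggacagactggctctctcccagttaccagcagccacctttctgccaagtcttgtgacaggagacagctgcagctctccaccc
The capitals mark an E-box in Atp5g1, overlapping NRF1 cores of both orientations in Atp5g2, and an E-box followed by a reverse-strand ERR site in Atp5g3. In Cox6a1 they mark overlapping NRF1 cores and, nearer the start, an ETS core, and in Atp5l an NRF1 core, an ETS core and an E-box. Of the 16 subunits with a window that rose with stage in WT, 7 held at least 1 of the 5 motifs, as did 25 of the other 54.

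Subunit transcripts were abundant at either stage. Together they made up 5.88% and 6.31% of the summed FPKM (loci of at least 300 bp) for WT and 6.68% and 5.50% for cKO at E8.5, and 8.69% and 8.22% for WT and 7.61% and 7.61% for cKO at E9.5, so that all 4 E9.5 libraries lay above all 4 E8.5 libraries. That order is of this sum only. Over all loci the total of E9.5 cKO replicate 1 was 1944600 FPKM, against 885190 for loci of at least 300 bp, and the order did not hold. Averaged over the libraries, 22 subunits exceeded 1000 FPKM, 52 lay between 100 and 1000, and 8 between 1 and 100. Atp5b, the catalytic beta subunit of ATP synthase, was highest with a mean of 3559 FPKM, followed by the complex IV subunits Cox8a at 3149 and Cox6b1 at 2645. Lowest of those tested were Cox8b at 2.29 and Atp5s at 3.07 FPKM. In WT at E8.5 the median subunit was at 326 ± 23.4 FPKM in complex I, 294 ± 14.5 in complex II, 680 ± 93.4 in complex III, 822 ± 32.8 in complex IV and 813 ± 27.3 in complex V (SD, n = 2). In WT at E9.5 it was at 373 ± 89.6, 355 ± 3.12, 1008 ± 111, 1166 ± 168 and 1425 ± 74.1 in the same order. Complexes I and II were thus the lower pair at either stage, and the neighbours IV and V at E8.5, and I and II as well as III and IV at E9.5, differed by less than the spread between libraries.

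**Figure D1:**
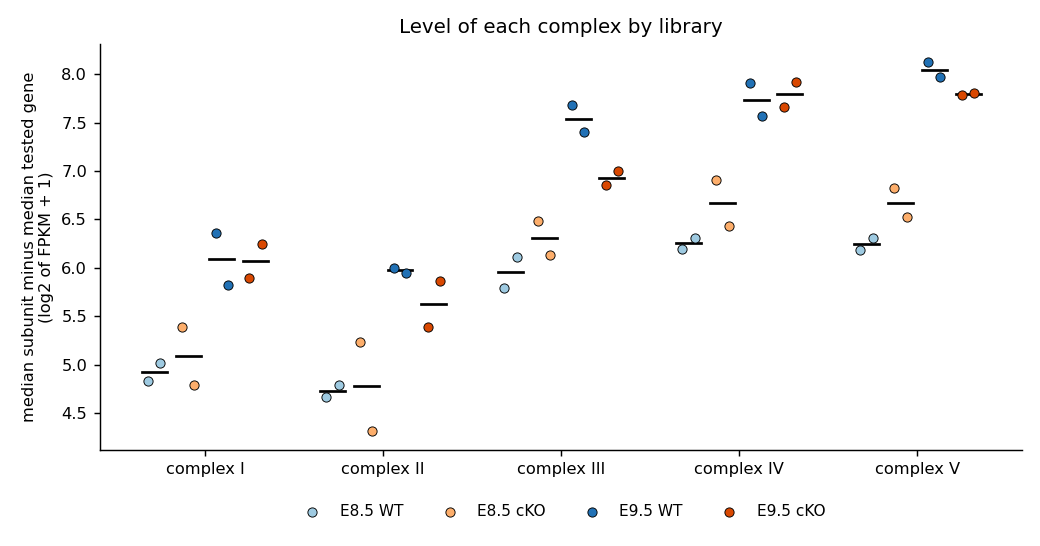
Level of each complex by library, as the median subunit minus the median of all tested genes, in log2(FPKM + 1) units. Points are the 2 libraries of a group and bars their mean, and in each of the 5 complexes the 4 E9.5 libraries lie above the 4 E8.5 libraries. The median tested gene itself was lower at E9.5 (3.85 to 4.50 FPKM) than at E8.5 (7.62 to 9.90 FPKM). In FPKM, without that subtraction, the median subunits of the stages overlap in complexes I to IV.

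In WT hearts, 20 of 82 subunits were called higher between the stages (1.40% of all tested genes were) and 3 lower (46.7% were). Among them is Cox8b, which was listed at 0 at E8.5 and passed the filter only through E9.5, so that its call was fixed by the filter, and without it 19 of 81 were called higher. The median log2 change was 0.41 for subunits and -0.84 for all tested genes, and 79 of 82 subunits lay above the median gene. Relative to that gene, 72 of 82 were at least 1.5-fold higher (15.8% of all tested genes were). With median-ratio scaling of the libraries the shift of the median gene was removed, 2.92% of all genes being called higher and 0.649% lower, and 38 subunits were called, all higher. After quantile normalisation, which gives every library the same distribution, 1 was called, Cox8b. The count of 23 became 0 without E8.5 WT replicate 1, 1 without E8.5 WT replicate 2, 1 without E9.5 WT replicate 1 and 12 without E9.5 WT replicate 2. Of the 10 cardiomyocyte markers, 4 were called higher and none lower, with a median log2 change of 0.89. With median-ratio scaling 6 were called higher (median 1.91) and after quantile normalisation 0 (median 0.37), and the part of these cells in the change of the subunits was not tested. The 8 yolk sac endoderm markers also moved with stage in WT, summing to 869 and 2884 FPKM at E8.5 and 6982 and 5221 at E9.5 (2 called higher, none lower, median log2 change 1.52), against 7520 and 2152 at E8.5 and 4573 and 6953 at E9.5 in cKO, and their part was not tested either.

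By complex, 10 of 16 tested subunits were called higher in complex IV, 8 of 17 in complex V, 1 of 8 in complex III, 1 of 37 in complex I and 0 of 4 in complex II. The 10 include Cox8b, whose call was fixed by the filter. Median log2 changes for complexes I to V were 0.16, 0.25, 0.60, 0.83 and 0.70, and relative to the median gene 0.99, 1.09, 1.44, 1.67 and 1.54. At least 1.5-fold above the median gene were 33 of 37 subunits in complex I, 4 of 4 in complex II, 8 of 8 in complex III, 12 of 16 in complex IV and 15 of 17 in complex V. The difference between complexes was not tested.

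**Figure D2:**
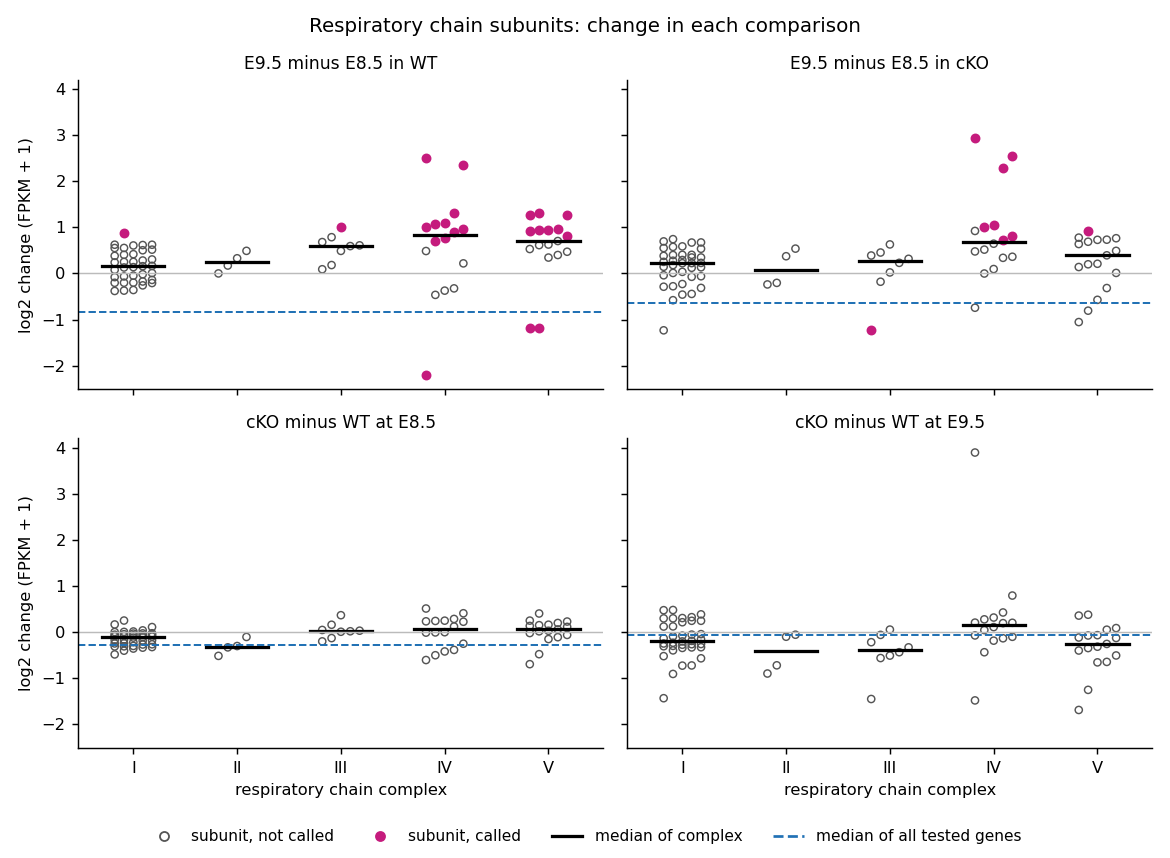
Log2 change of each tested subunit (circle) by complex in 4 comparisons, with called subunits filled, the median of each complex as a black bar and the median of all tested genes as a dashed line. Filled circles lie mainly in complexes IV and V for the change with stage in WT, and none is filled in the comparisons of cKO with WT.

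The catalytic core of ATP synthase rose with stage in WT. Atp5b was at 1923 and 2006 FPKM at E8.5 and 4716 and 4718 at E9.5 (1.26 ± 0.24, adjusted p = 0.0127). Atp5a1, the alpha subunit, was at 794 and 833 FPKM at E8.5 and 1884 and 2028 at E9.5 (1.26 ± 0.27, adjusted p = 0.0145), and Atp5c1, the gamma subunit of the rotating stalk, at 705 and 817 FPKM at E8.5 and 1478 and 1456 at E9.5 (0.95 ± 0.24, adjusted p = 0.0204). In each the stages were separated by far more than the libraries of a stage. Of the genes for the c-ring, through which protons pass, Atp5g3 (1.31 ± 0.27, adjusted p = 0.014) and Atp5g1 (0.80 ± 0.29, adjusted p = 0.0499) were called and Atp5g2 was not (0.35 ± 0.27, adjusted p = 0.284). Atp5k and Atp5l of the membrane part and Atp5o of the peripheral stalk were called with changes of 0.92, 0.96 and 0.95. Called lower were Atp5s, known as a coupling factor, at 6.13 and 5.17 FPKM at E8.5 and 1.81 and 2.02 at E9.5 (-1.19 ± 0.34, adjusted p = 0.0262), and Atp5sl, whose product is known from complex I assembly, at 33.3 and 33.2 FPKM at E8.5 and 15.6 and 12.9 at E9.5 (-1.17 ± 0.38, adjusted p = 0.0366). Relative to the median gene these were -0.35 and -0.34, and neither was called with median-ratio scaling. After correction for the GC content of transcripts the estimate for Atp5s reversed to 0.0790.

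In the ranking that follows Cox8b is left out, since it was listed at 0 at E8.5. Complex IV, cytochrome c oxidase, held the highest and the lowest estimate in WT, those of the isoforms Cox6a2 and Cox4i2 described further on. Among its ubiquitous subunits, Cox8a was at 1300 and 1988 FPKM at E8.5 and 4623 and 3450 at E9.5 (1.31 ± 0.28, adjusted p = 0.0147), and Cox6b1, which joins the monomers of the oxidase, at 1490 and 1901 FPKM at E8.5 and 3861 and 3269 at E9.5 (1.08 ± 0.23, adjusted p = 0.0147). Cox5b was at 845 and 1027 FPKM at E8.5 and 2115 and 1673 at E9.5 (1.01 ± 0.25, adjusted p = 0.0197) and Cox4i1, the common form of the regulatory subunit 4, at 1166 and 1334 FPKM at E8.5 and 2851 and 2094 at E9.5 (0.97 ± 0.30, adjusted p = 0.0337). For these genes the lowest E9.5 library lay above the highest E8.5 library. Cox5a, Cox7c, Cox6a1 and Cox6c were also called, with changes of 1.09, 0.91, 0.76 and 0.71.

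Complexes I, II and III had few calls in WT. In complex I, NADH dehydrogenase, no core subunit that carries the flavin or an iron-sulfur centre was called, the values being -0.20 ± 0.41 in Ndufs1, 0.42 ± 0.30 in Ndufs7, -0.06 ± 0.41 in Ndufs8, 0.50 ± 0.34 in Ndufv1 and 0.08 ± 0.32 in Ndufv2. The core subunit Ndufs3, which holds no such centre, had a change of -0.02 ± 0.33. The accessory subunit Ndufa12 was the complex I member called, at 406 and 466 FPKM at E8.5 and 949 and 680 at E9.5 (0.88 ± 0.27, adjusted p = 0.0331). In complex II, succinate dehydrogenase, the flavoprotein Sdha had a change of 0.33 ± 0.37, the iron-sulfur subunit Sdhb of 0.49 ± 0.29, and the membrane anchors Sdhc and Sdhd of 0.17 ± 0.33 and 0.00 ± 0.36. In complex III, cytochrome bc1, the small subunit Uqcr10 was called, at 953 and 1439 FPKM at E8.5 and 2675 and 2098 at E9.5 (1.02 ± 0.28, adjusted p = 0.0232). The Rieske iron-sulfur protein Uqcrfs1, at 249 and 290 FPKM at E8.5 and 425 and 438 at E9.5, missed the threshold (0.68 ± 0.28, adjusted p = 0.0692), as did the core proteins Uqcrc1 (0.59 ± 0.39) and Uqcrc2 (0.18 ± 0.35). Cyc1, the cytochrome c1 of complex III, lies outside the symbol rule and was called, at 320 and 414 FPKM at E8.5 and 791 and 746 at E9.5 (1.08 ± 0.28, adjusted p = 0.0209).

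In cKO hearts, 8 of 82 subunits were called higher between the stages (2.05% of all tested genes were) and 1 lower (28.5% were). At an unadjusted p under 0.05 with 1.5-fold, 16 were higher (3.25% of all tested genes were) and 4 lower (42.9% were). The median log2 change was 0.33 for subunits and -0.64 for all tested genes, and 63 subunits were at least 1.5-fold above the median gene (18.9% of all tested genes were). Complex IV held 7 of the calls, that of Cox8b among them, and the medians for complexes I to V were 0.23, 0.09, 0.27, 0.69 and 0.39. Atp5b was at 3048 and 2223 FPKM at E8.5 and 4485 and 5350 at E9.5 (0.91 ± 0.24, adjusted p = 0.0295), Cox8a at 2292 and 2302 FPKM at E8.5 and 5007 and 4229 at E9.5 (1.002 ± 0.28, adjusted p = 0.0347) and Cox4i1 at 1887 and 1144 FPKM at E8.5 and 3215 and 2886 at E9.5 (1.05 ± 0.30, adjusted p = 0.0368). Cox5b (0.81 ± 0.25, adjusted p = 0.0461) and Cox6b1 (0.73 ± 0.23, adjusted p = 0.0473) were called too, as were the isoforms Cox6a2 and Cox4i2, and without Cox8b 7 of 81 were called higher. Uqcrb, a small complex III subunit near the ubiquinone site, was called lower, at 912 and 1228 FPKM at E8.5 and 318 and 639 at E9.5 (-1.23 ± 0.36, adjusted p = 0.0386). That call ended with 5 of the 8 libraries left out in turn, without the filter, after quantile normalisation and in the 4 cKO libraries alone, and the estimate was -0.73 without E9.5 cKO replicate 1, -0.45 with median-ratio scaling and -0.05 with GC correction. The stage comparisons of WT and cKO share no library but share 1 model and its estimate of the spread, so their calls are not independent. Called higher in both were 7 subunits, Cox8b among them, 87.5% of the 8 in cKO and 35.0% of the 20 in WT. Of all tested genes, 67 (0.669%) were called higher in both, 32.7% of the 205 in cKO and 47.9% of the 140 in WT. After quantile normalisation 2 subunits were called in cKO, without the filter 1 (Cox8b), and in the 4 cKO libraries alone 3. The count of 9 calls in cKO became 0 without E9.5 cKO replicate 1 and 0 without replicate 2, 23 without E8.5 cKO replicate 1, 3 without E8.5 WT replicate 1, 4 without E8.5 WT replicate 2, and 22, all higher, with median-ratio scaling (3.56% of all genes were then called higher and 0.739% lower).

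Among the isoform sets of complex IV, Cox6a2 made up a larger share of its set at E9.5 in both genotypes, and no share was tested. Cox6a2, the form of heart and skeletal muscle, was at 25.2 and 56.1 FPKM at E8.5 and 238 and 204 at E9.5 in WT (2.52 ± 0.75, adjusted p = 0.0292) and at 93.3 and 14.7 FPKM at E8.5 and 271 and 324 at E9.5 in cKO (2.95 ± 0.75, adjusted p = 0.027). Both calls ended without the filter, after quantile normalisation, under GC correction with a replicate block and with either E9.5 cKO library left out, and that in WT with any WT library left out too (adjusted p of at most 0.146 in WT and 0.131 in cKO). The estimate in cKO was 1.66 without E8.5 cKO replicate 2 and 4.24 without replicate 1. Its share of the summed Cox6a1 and Cox6a2 FPKM was 5.06% ± 2.93 in WT and 4.98% ± 4.38 in cKO at E8.5, and 14.4% ± 0.662 in WT and 17.4% ± 1.32 in cKO at E9.5 (SD, n = 2 each). Every E9.5 library lay above every E8.5 library, while the E8.5 libraries of a genotype differed widely. Cox8b, another muscle form, was listed at 0 in all 4 E8.5 libraries and stood at 3.32 and 5.09 FPKM in WT and 4.10 and 5.77 in cKO at E9.5. No fold or p is given for it against groups listed at 0, and its calls with stage stand in the counts only. Cox8a remained over 99% of the Cox8 FPKM. Cox7a1, likewise a muscle form, made up 13.9% and 17.8% of Cox7a1 and Cox7a2 for WT and 18.1% and 8.56% for cKO at E8.5, and 11.7% and 11.1% for WT and 16.4% and 12.9% for cKO at E9.5, with overlap between the stages in cKO, and was not called with stage (-0.32 ± 0.54 in WT and 0.34 ± 0.54 in cKO). Cox7a2 (0.22 ± 0.27) and Cox7a2l, a supercomplex factor (-0.46 ± 0.25), were not called in WT either. Cox6b2, known from the testis, stayed under 1% of Cox6b1 and Cox6b2.

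**Figure D3:**
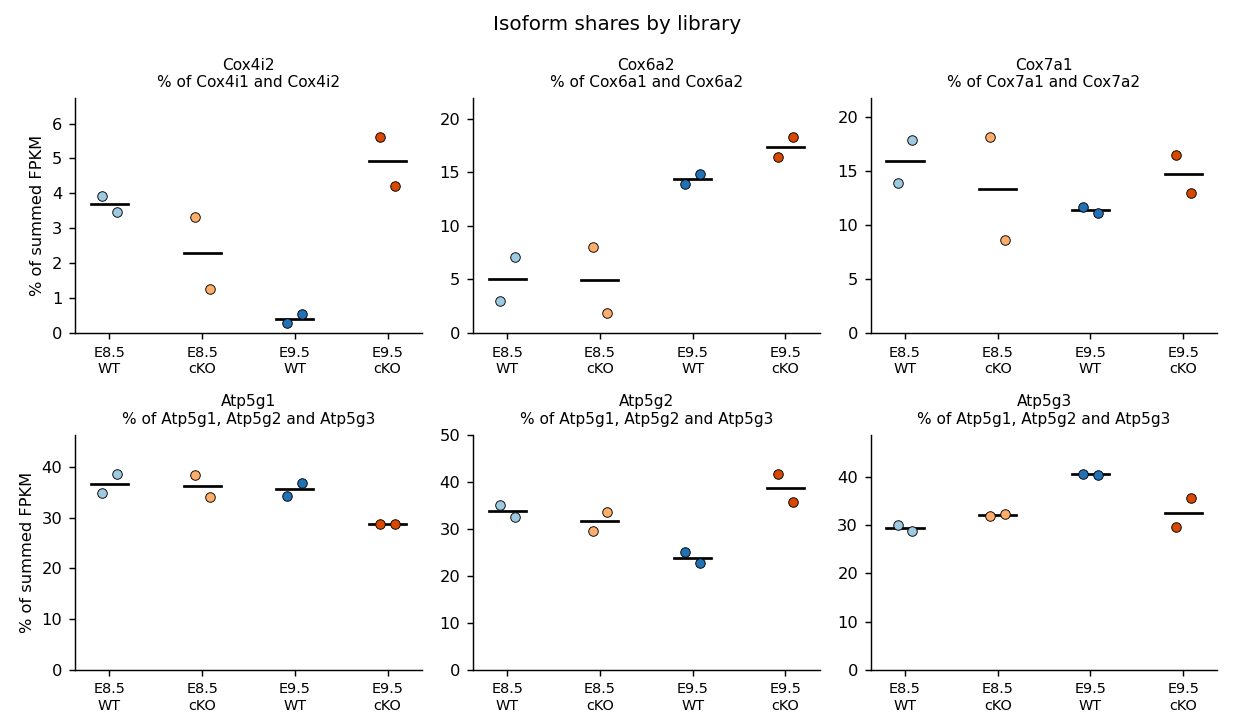
Share of an isoform in the summed FPKM of its set, in percent, with the 2 libraries of a group as points and their mean as a bar. Cox6a2 is higher in both E9.5 groups, Cox4i2 is lowest in E9.5 WT and highest in E9.5 cKO, and in E9.5 WT Atp5g2 is lowest and Atp5g3 highest.

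The genes of the ATP synthase c subunit, whose promoters are shown above, differed in their shares between groups. In WT, Atp5g3 made up 30.1% and 28.9% of their summed FPKM at E8.5 and 40.7% and 40.5% at E9.5, and Atp5g2 35.0% and 32.5% and then 25.0% and 22.7%. In cKO at E9.5, Atp5g2 made up 41.7% and 35.7%, Atp5g3 29.6% and 35.7% and Atp5g1 28.7% and 28.7%, where Atp5g1 was 34.3% and 36.8% in WT. The 3 shares sum to 100% and are not separate observations, and they were not tested. At E8.5 Atp5g3 made up 31.9% and 32.4% in cKO. As single genes none was called between the genotypes at E9.5 (Atp5g1 -0.64 ± 0.29, adjusted p = 0.330). The estimate for Atp5g2 was 0.36 ± 0.27, adjusted p = 0.579, and that for Atp5g3 -0.65 ± 0.27, adjusted p = 0.293.

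At E8.5 limma called no subunit between cKO and WT (0.00998% of all tested genes were called, in either direction), and none passed at an unadjusted p under 0.05 with 1.5-fold either (0.240% of all tested genes were higher and 6.90% lower). The median log2 change was -0.06 for subunits and -0.28 for all tested genes. Highest were Cox8a (0.51 ± 0.28, adjusted p = 0.596), Cox5b (0.41 ± 0.25, adjusted p = 0.602) and Atp5b (0.41 ± 0.24, adjusted p = 0.596), and lowest Atp5s (-0.69 ± 0.34, adjusted p = 0.590), Cox4i2 (-0.60 ± 0.60, adjusted p = 0.702) and Sdhd (-0.51 ± 0.36, adjusted p = 0.620). Both cKO libraries lay above both WT libraries in 6 subunits (2.54% of all tested genes) and below both in 8 (40.1% of all tested genes). The median of the subunits relative to all genes was 0.23. It was 0.47 without cKO replicate 2 and 0.05 without replicate 1. Decidual markers were at 37.4 FPKM in replicate 1 and 5168 in replicate 2. Those libraries differed in other markers too, with 7520 and 2152 FPKM for yolk sac endoderm, 39605 and 16613 for erythroid and 56894 and 39229 for cardiomyocyte markers. The part of any of these cells was not tested.

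At E9.5 limma called no subunit between cKO and WT either (0.180% of all tested genes were called, in either direction). At an unadjusted p under 0.05 with 1.5-fold, 1 of 82 was higher (5.08% of all tested genes were) and 9 were lower (9.99% were). The libraries of the genotypes were apart in 13 subunits higher in cKO (21.0% of all tested genes) and 31 lower (31.1% of all tested genes). The median log2 change was -0.13 for subunits and -0.07 for all tested genes, and for complexes I to V it was -0.19, -0.41, -0.38, 0.15 and -0.25. The median complex III subunit was at 1008 ± 111 FPKM in WT and 631 ± 17.7 in cKO, and that of complex IV at 1166 ± 168 and 1168 ± 47.5 (SD, n = 2 each). Catalytic core subunits ran from -1.43 in Ndufs1 to 0.30 in Ndufs7, with Atp5b at 0.05 ± 0.24, Atp5a1 at -0.25 ± 0.27, Uqcrc1 at 0.06 ± 0.39 and Sdhb at -0.05 ± 0.29.

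Cox4i2, the isoform of subunit 4 known to be induced by low oxygen, had the largest estimate between the genotypes. It was at 47.5 and 47.9 FPKM in WT and 64.6 and 14.6 in cKO at E8.5, and 7.81 and 11.5 in WT and 191 and 127 in cKO at E9.5. The E9.5 groups were far apart, and the cKO libraries at E8.5 lay on either side of the WT libraries. The E9.5 estimate of 3.90 ± 0.60 was not called over all genes (limma, adjusted p = 0.0648). It was called with median-ratio scaling, among genes averaging at least 5 FPKM, after correction for GC content, and without E8.5 cKO replicate 1 or replicate 2. It was not called after quantile normalisation, with a replicate block with or without GC correction, in the 4 E9.5 libraries alone, or with any WT library or E9.5 cKO library left out (adjusted p of at most 0.637). With stage, Cox4i2 was called lower in WT (-2.21 ± 0.60, adjusted p = 0.0231), a call that ended with median-ratio scaling, quantile normalisation, GC correction, no filter or any WT library left out, and higher in cKO (2.29 ± 0.60, adjusted p = 0.0294). The call in cKO ended with either E9.5 cKO library left out, without the filter on low values and under GC correction with a replicate block (adjusted p of at most 0.128 over the alternatives), and the estimate was 1.26 without E8.5 cKO replicate 2 and 3.33 without replicate 1. Its share of Cox4i1 and Cox4i2 was 3.91% and 3.47% in WT and 3.31% and 1.26% in cKO at E8.5, and 0.273% and 0.549% in WT and 5.61% and 4.22% in cKO at E9.5, so that Cox4i1 remained the main form. The Cox4i2 locus (chr2:152754173-152765037, GRCm38) overlaps that of Bcl2l1, an inhibitor of apoptosis, by 6306 bp. At E9.5 Bcl2l1 was at 25.1 and 24.1 FPKM in WT and 39.7 and 28.7 in cKO (0.44 ± 0.33, adjusted p = 0.580), and since no use of strand is stated, reads of overlapping genes cannot be told apart. The 10 endothelial and endocardial markers summed to 120 and 107 FPKM in WT and 188 and 163 in cKO at E9.5, and their part in the Cox4i2 difference was not tested.

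**Figure D4:**
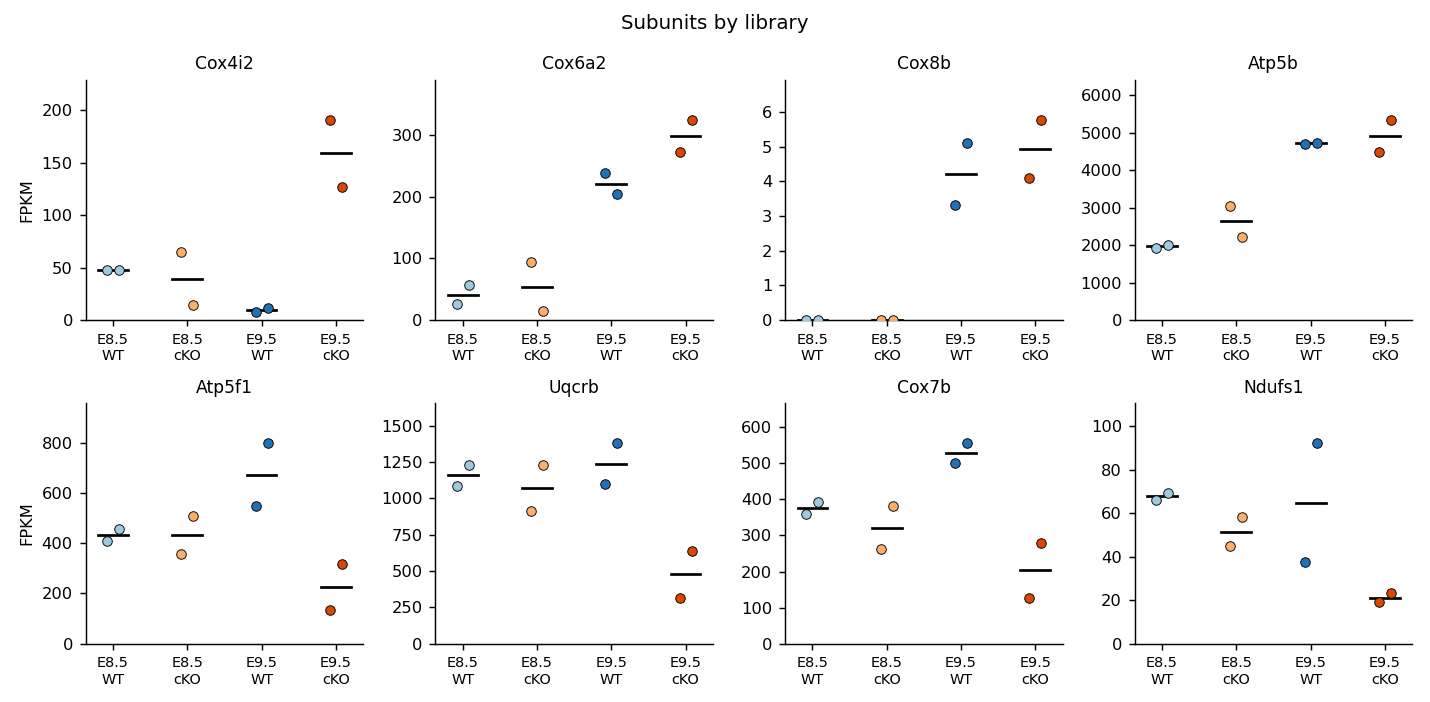
FPKM of 8 subunits by group, with the 2 libraries as points and their mean as a bar, on axes that start at 0. Cox4i2 is highest in E9.5 cKO, Cox6a2, Cox8b and Atp5b are higher at E9.5 in both genotypes, and Atp5f1, Uqcrb, Cox7b and Ndufs1 are lowest in E9.5 cKO.

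The lowest estimates in cKO at E9.5 came from complexes I, III, IV and V. Atp5f1, the b subunit of the peripheral stalk of ATP synthase, was at 549 and 797 FPKM in WT and 132 and 316 in cKO (-1.69 ± 0.43, adjusted p = 0.136). Cox7b was at 501 and 555 FPKM in WT and 127 and 279 in cKO (-1.48 ± 0.39, adjusted p = 0.143) and Uqcrb at 1102 and 1378 FPKM in WT and 318 and 639 in cKO (-1.45 ± 0.36, adjusted p = 0.134). In all 3 the groups did not overlap, and cKO replicate 1 was the lower library. Without that library the estimates were -1.06 in Atp5f1, -0.91 in Cox7b and -0.95 in Uqcrb. Ndufs1, the largest iron-sulfur subunit of complex I, was at 37.4 and 92.1 FPKM in WT and 19.2 and 23.3 in cKO (-1.43 ± 0.41, adjusted p = 0.161), with a wide spread in WT. Without E9.5 WT replicate 2 its estimate was -0.79. Named after their values were seen, Atp5j of the peripheral stalk, at 1333 and 1415 FPKM in WT and 411 and 807 in cKO (-1.25 ± 0.35, adjusted p = 0.155), and the complex I accessory subunits Ndufa5 (-0.91 ± 0.34) and Ndufb3 (-0.73 ± 0.27) were also under an unadjusted p of 0.05, as were Sdha (-0.90 ± 0.37) and Atp5g3. The Atp5f1 locus (chr3:105942678-105960248) overlaps that of Wdr77 by 751 bp, and Wdr77 was at 44.1 and 45.5 FPKM in WT and 13.4 and 20.9 in cKO. On the other side, Cox6b2 was at 7.25 and 7.70 FPKM in WT and 11.7 and 16.01 in cKO (0.80 ± 0.38, adjusted p = 0.354) and Ndufa13, an accessory subunit of complex I, at 183 and 143 FPKM in WT and 244 and 211 in cKO (0.48 ± 0.35, adjusted p = 0.574).

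The estimates at E9.5 moved with the base composition of the transcripts. Across the 82 subunits, Spearman's rho between the log2 change in cKO and transcript GC content was 0.600, and across 9122 tested genes with a transcript sequence it was 0.406. Genes are not independent replicates and share the same 4 libraries, so no p is given. Of the 41 subunits below their median GC content of 52.4%, 3 had a change above 0 and the median was -0.31, and of the 41 at or above it, 24 had and the median was 0.12. Cox7b, Uqcrb, Ndufs1 and Atp5f1 had 42.0%, 42.2%, 45.7% and 47.5% GC. Under every alternative, GC correction included, their estimates stayed at or below -0.91, -0.95, -0.79 and -1.06 in the same order. The part of GC content in these estimates was not tested. The difference between the cKO replicates at E9.5 (replicate 2 minus 1) also moved with GC content across subunits (rho -0.623, against -0.188 across all tested genes), as did that between the WT replicates (rho -0.296, against -0.619). After a GC correction, chosen after seeing the data, Cox4i2 was the subunit called, and none was with a replicate block added. The rho of the difference between cKO and WT at E8.5 was 0.220 across subunits and 0.0683 across all tested genes. That of the change with stage was 0.104 and 0.262 in WT, and 0.506 and 0.514 in cKO.

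**Figure D5:**
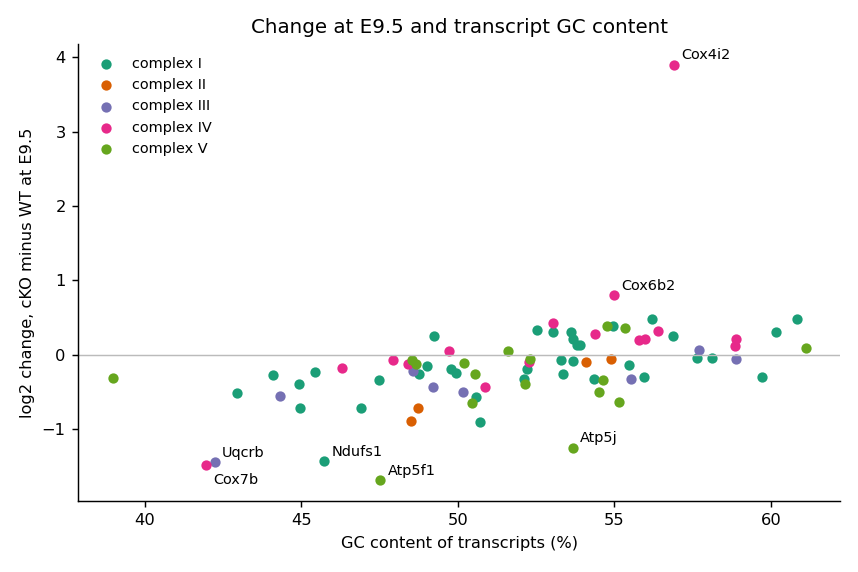
Log2 change of cKO against WT at E9.5 for the 82 tested subunits, against the GC content of their transcripts in percent (median over coding transcripts), coloured by complex. Of the 41 subunits below the median GC content 3 lie above 0, and Cox4i2 stands far above the others.

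Whether the difference between cKO and WT changed with stage was tested as an interaction, and no subunit was called (0.0399% of all tested genes were, in either direction). The highest estimates were those of Cox4i2 (4.50 ± 0.85, adjusted p = 0.259), Cox6b2 (1.30 ± 0.53, adjusted p = 0.693) and Atp5sl (0.86 ± 0.53, adjusted p = 0.775), and the lowest those of Atp5f1 (-1.67 ± 0.61, adjusted p = 0.689), Uqcrb (-1.32 ± 0.51, adjusted p = 0.689) and Cox7b (-1.23 ± 0.55, adjusted p = 0.703). At an unadjusted p under 0.05 with 1.5-fold, 4 of 82 subunits passed, Cox4i2 and Cox6b2 higher and Atp5f1 and Uqcrb lower, where 5.69% of all tested genes were higher and 1.49% lower. Without overlap of the libraries, Atp5f1 was higher at E9.5 in WT and lower in cKO (0.499% of all tested genes were), and Cox4i2 lower in WT and higher in cKO (1.99% were).

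Genes around the respiratory chain were examined as lists, of which no gene was called between cKO and WT at either stage. Of all tested genes, 46.7% were called lower with stage in WT and 28.5% in cKO, and the counts of the lists stand beside these shares. Of 45 assembly factors, which build the complexes without staying in them, 1 was called higher and 25 lower with stage in WT, with a median log2 change of -0.80, and 0 and 13 in cKO. The factor called higher was Ndufaf5 (0.86 ± 0.24, adjusted p = 0.0256), named after its value was seen. Of 14 electron carriers and coenzyme Q synthesis genes, 5 were called lower in WT and 4 in cKO, with none higher, and with median-ratio scaling 0 were lower and 1 higher in WT. Of 16 regulators and genes of mitochondrial DNA expression, 11 were called lower in WT and 6 in cKO, with none higher. Tfam, which packages and transcribes mitochondrial DNA, was at 17.9 and 16.9 FPKM in WT and 10.7 and 11.6 in cKO at E8.5, and 6.35 and 8.75 in WT and 2.27 and 3.38 in cKO at E9.5. It was called lower with stage in WT (-1.12 ± 0.26, adjusted p = 0.0168) and in cKO (-1.68 ± 0.26, adjusted p = 0.016), and at E9.5 the estimate for cKO against WT was -1.16 ± 0.26, adjusted p = 0.119. The transcription factors Nrf1 (-1.05 ± 0.28, adjusted p = 0.0215) and Gabpa (-1.18 ± 0.38, adjusted p = 0.0374) were called lower in WT, at -0.22 and -0.35 relative to the median gene. These calls followed the scaling, since with median-ratio scaling 0 of 45 assembly factors and 1 of 16 regulators were called lower in WT, and neither Tfam, Nrf1 nor Gabpa was called with it or after quantile normalisation. In cKO, 0 assembly factors and 2 regulators were called lower with median-ratio scaling, and 0 and 1 after quantile normalisation. Tfam in cKO was at -1.04 ± 0.30 (adjusted p = 0.0869) and -1.01 ± 0.29 (adjusted p = 0.0973) under the same scalings, and in WT at -0.18 and -0.13. Esrra (-0.68 ± 0.25, adjusted p = 0.0556) and the coactivator Ppargc1a (-0.68 ± 0.40, adjusted p = 0.177) were not called, with mean levels of 2.41 and 1.86 FPKM.

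Of the 6 genes tested that supply ATP synthase or export its product, 3 were called higher with stage in WT (1.40% of all tested genes were) and none lower, and 1, Vdac1 of the outer membrane (0.80 ± 0.25, adjusted p = 0.047), in cKO. With median-ratio scaling 4 were called higher in WT, and after quantile normalisation 0. The adenine nucleotide translocases Slc25a4 and Slc25a5, which exchange ATP for ADP, were at 1090 and 1270 FPKM at E8.5 and 2998 and 2834 at E9.5 (1.31 ± 0.27, adjusted p = 0.0145) and at 886 and 982 FPKM at E8.5 and 1917 and 1844 at E9.5 (1.01 ± 0.29, adjusted p = 0.026), and the phosphate carrier Slc25a3 at 424 and 458 FPKM at E8.5 and 867 and 824 at E9.5 (0.94 ± 0.26, adjusted p = 0.0246). At E9.5 Slc25a5 was at 828 and 1172 FPKM in cKO (-0.93 ± 0.29, adjusted p = 0.180 against WT). Cycs, the cytochrome c that carries electrons from complex III to complex IV, was at 345 and 445 FPKM in WT and 142 and 244 in cKO at E9.5 (-1.07 ± 0.32, adjusted p = 0.171). Of 13 genes of the citric acid cycle, 0 were called in WT with stage, where their median was 0.30. With median-ratio scaling 5 were called higher in WT, with a median of 1.30, and after quantile normalisation 0. In cKO with stage, 1 of the 13 was called higher and 1 lower (2.05% and 28.5% of all tested genes were). For cKO against WT at E9.5 their median was -0.53. At an unadjusted p under 0.05 with 1.5-fold, 4 were then lower (9.99% of all tested genes were) and 0 higher. Ckmt2, the mitochondrial creatine kinase of muscle, averaged 0.566 FPKM and was not tested. The subunits encoded by mitochondrial DNA were not analysed here.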

How the data were processed

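Total RNA of E8.5 and E9.5 hearts was amplified with a SMARTer kit (per the labels) and sequenced by the authors, who deposited an FPKM table of 8 libraries. The submitters' processing notes name BWA and mm9. The program behind the FPKM values is not given in the sources used here. Of 9515 tested genes, 91.7% start within 1000 bp of their GRCm38 position, so coordinates are read as GRCm38. The table has 24930 entries. Of 285 symbols listed more than once, the row with the highest mean was kept. How reads shared with processed pseudogenes were assigned is not stated.

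Genes with mean FPKM of 1 or more were fitted with limma 3.58.1 (R 4.3.3, trend and empirical Bayes, 4 groups, no other covariate) on log2(FPKM + 1). Scripts were tested on simulated data. Values of some listed genes are not reported here. FPKM does not carry depth, so no counting interval is given. The study describes biological replicates, 2 in each group, and the labels name no litter. Members and gene lists were chosen with earlier results of these data known. Named subunits were the catalytic core, the isoform sets, those called (if over 8, the 4 largest changes each way) and, where none was called, the 3 highest and 3 lowest. Other subunits, such as the remaining calls in WT, were named after their values were seen. Alternatives changed the scaling, pseudocount, filter, trend, libraries, replicate block and GC content.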

Additional observations from a re-analysis of the deposited data

Results flagged for a closer look

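For 2 of 82 subunits the libraries of the stages did not overlap, in opposite directions in WT and cKO. Of all tested genes, 0.499% were so higher in WT and lower in cKO and 1.99% the reverse. Cox4i2 had a log2 change from E8.5 to E9.5 of -2.21 in WT hearts and 2.29 in cKO hearts. Atp5f1 had one of 0.62 in WT and -1.05 in cKO. The difference between the genotypes was tested as a limma interaction and was called for neither (adjusted p = 0.259 for Cox4i2 and 0.689 for Atp5f1).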

How the results depend on the processing

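For cKO against WT at E8.5, 0 subunits were called under every alternative tried, and the relative median of 0.227 became -0.00484 after quantile normalisation and ranged from 0.0510 to 0.465 with 1 library left out. At E9.5, 1 was called (Cox4i2) with median-ratio scaling, a mean of at least 5 FPKM or GC correction, 10 at an unadjusted p, and 0 to 1 with 1 library left out. For the change with stage in WT, the 23 calls became 38 with median-ratio scaling, 1 (Cox8b) after quantile normalisation, 10 without the filter, 39 with GC correction, and 0 to 29 with 1 library left out. Its relative median of 1.25 became 1.46, 0.400 and 0.777 under the first 3 of these, and 1.16 to 1.33 with 1 library left out. In cKO, the 9 calls became 22, 2, 1 (Cox8b) and 20 under the same 4 alternatives, 3 in the 4 libraries alone, 20 at an unadjusted p, and 0 to 23 with 1 library left out. Its relative median of 0.965 became 0.363 after quantile normalisation and 0.521 without the filter, and 0.687 to 1.15 with 1 library left out. For the interaction, 4 passed at an unadjusted p (2 in each direction, against 5.69% of all tested genes higher and 1.49% lower), and 0 to 1 with 1 library left out. Atp5s in WT reversed to 0.0790 with GC correction, with or without the replicate block. The labels number replicates alike in each group, but same-numbered libraries did not deviate together (correlations -0.116 to 0.195), so they share only a number. With a replicate block, 18 subunits were called higher and 3 lower in WT, and 5 higher and 3 lower in cKO (21 and 8 calls), with GC correction 1 in cKO (Cox8b), and within the 4 WT libraries 15, or 26 with the numbers crossed. Of the values for single subunits, 3409 kept their direction and side of the threshold, 173 no longer passed it, 54 newly passed it and 2 reversed. The cause of these differences was not tested. Where a library was left out, its partner was assumed to vary like the other groups, and since depth is not given, no limit of detection was computed.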
